A study of Mus musculus with 13 samples.

Results

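The S100 genes followed here through neonatal mouse back skin were S100a4, S100a6, S100a7a, S100a8, S100a9, S100a10, S100a11, S100a13, S100a14 and S100a16. They were chosen by symbol, as 10 of the 49315 genes in the count files, and all 10 were found. Total RNA of whole back skin at postnatal day 4 (P4) was sequenced from 3 WT mice and 3 mice labelled DKO, with 1 library per mouse. The mice labelled DKO carried the K14Cre transgene with both Kctd1 and Kctd15 floxed (K14Cre+ Kctd1 fl/fl Kctd15 fl/fl), and the WT mice were their littermates, for which the labels give no Cre and no floxed allele. Cre under the keratin 14 promoter acts in keratinocytes, so other cells of the skin keep both genes. The comparison addresses what the skin expresses differently when keratinocytes lose both KCTD proteins.

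S100 proteins are small calcium sensors built from EF-hand motifs that mostly work as dimers. In skin, S100A8 and S100A9 form calprotectin, which is stored in neutrophils and made by stressed keratinocytes, and which acts outside the cell as an alarmin through TLR4 and RAGE (the product of Ager). S100A7A is the mouse relative of psoriasin. S100A10 pairs with annexin A2 at the plasma membrane, S100A11 with annexin A1, and S100A6 with the calcyclin-binding protein. S100A13 takes part in the release of FGF1 and interleukin 1α without a signal peptide, S100A4 binds nonmuscle myosin and is known from fibroblasts and motile cells, and S100A14 and S100A16 are found in epithelia.

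All 10 genes lie on chromosome 3 (GRCm38, coordinates as in the count files). In order along the chromosome they are S100a13 (chr3:90514435-90524581), S100a14 (chr3:90526856-90528837), S100a16 (chr3:90537254-90543151), S100a4 (chr3:90603771-90606045), S100a6 (chr3:90612882-90624181), S100a7a (chr3:90654017-90658669), S100a8 (chr3:90668978-90670035), S100a9 (chr3:90692632-90695721), S100a11 (chr3:93520488-93526287) and S100a10 (chr3:93555080-93564643). S100a9 is on the minus strand and the others are on the plus strand, so S100a8 and S100a9 converge. The exons of S100a4 share 302 of their 584 bases (51.7%) with exons of Gm42674 on the same strand, and reads there could not be assigned to 1 of the genes by position. Gm42674 had 1 count in WT replicate 1 and 0 in the other libraries. Exons of the other 9 genes share no base with another annotated gene.

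The start regions of 4 of the genes are shown because they set the calprotectin pair beside the member with the lowest fold change, S100a7a, and the most abundant one, S100a11. Each runs from 150 bases before the annotated start to 30 bases from it (RefSeq, GRCm38.p6), is written 5′ to 3′ on the strand of the gene, and has motif matches in capitals. They were chosen after the values were seen.
S100a8, chr3:90668921-90669100, plus strand: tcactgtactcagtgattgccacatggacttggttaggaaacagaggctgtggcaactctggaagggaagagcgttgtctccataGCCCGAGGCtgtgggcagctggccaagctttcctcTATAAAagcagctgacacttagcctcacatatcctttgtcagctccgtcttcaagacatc
S100a9, chr3:90695692-90695871, minus strand: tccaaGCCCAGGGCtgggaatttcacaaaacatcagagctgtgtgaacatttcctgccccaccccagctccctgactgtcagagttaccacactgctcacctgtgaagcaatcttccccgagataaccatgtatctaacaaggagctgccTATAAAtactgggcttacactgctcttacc
S100a7a, chr3:90654152-90654331, plus strand: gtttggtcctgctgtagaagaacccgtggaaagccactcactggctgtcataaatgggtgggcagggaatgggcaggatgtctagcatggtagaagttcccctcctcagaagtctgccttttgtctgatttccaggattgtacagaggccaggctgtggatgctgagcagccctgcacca
S100a11, chr3:93520346-93520525, plus strand: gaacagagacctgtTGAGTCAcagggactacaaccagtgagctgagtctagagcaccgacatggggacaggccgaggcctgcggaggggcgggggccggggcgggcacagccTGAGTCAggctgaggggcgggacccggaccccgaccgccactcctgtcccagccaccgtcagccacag

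The windows were searched on both strands for 4 motifs by their letters. The core promoter motif was written as TATAAA. The motif of AP-1 factors was written as TGANTCA, where N is any base. For the AP-2 family, which KCTD proteins are known to inhibit, the letters were GCCNNNGGC, and for C/EBP factors they were TTGCNNAA. RefSeq start regions were found for 8 of the 10 genes, in 9 windows, since S100a16 has more than 1. The core promoter letters were in 3 of the 9 windows and in 8.37% of all 32851 windows of that length. They begin 30 bases before the start in S100a8, 31 bases before it in S100a4, and at position 1, the start itself, in S100a9. The AP-2 letters were in 2 of the 9 windows, 65 bases before the start of S100a8 and 145 bases before that of S100a9, and in 11.5% of all windows. AP-1 letters occurred 2 times in S100a11, 136 and 38 bases before the start, and in 4.99% of all windows. The C/EBP letters were in 0 of the 9 windows and in 6.32% of all windows, and the S100a7a window held no match to any of the 4. That window lies wholly inside the counted span of S100a7a, which begins at chr3:90654017, so the region before that start was not searched. No motif overlapped another. These are matches of letters and say nothing about binding.

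The 6 libraries held 11263863 to 17643043 counts on genes. Normalized counts are given throughout: each count was scaled by its library's TMM-adjusted size to the mean of these sizes. The floor was set at 3 counts, or 0.17 to 0.266 CPM (counts scaled to library size), which covers counting error only. Nothing in the gene counts checks the deletion, because they span all exons: Kctd1 had 410 to 443 normalized counts in WT and 506 to 985 in the mice labelled DKO, and Kctd15 had 736 to 763 and 1131 to 1509. Directions below therefore rest on the labels, and DKO stands for the libraries labelled so. The study reports, from RNA-Seq, efficient removal of the floxed exons in epidermal sheets of mice with either gene floxed alone, and also in mice of this genotype. It does not name P4 back skin there. The replicates of a group differed by more than counting noise, with a chi-square per gene between 8.79 and 57.2 over the pairs. The labelled tissue was checked on marker lists, and keratinocyte, hair follicle, fibroblast, adipocyte, muscle, endothelial and myeloid genes were all detected, as whole skin contains. DKO replicate 1 stood apart, with the lowest total and a summed hair follicle list at 0.362 of the WT mean, against 0.920 in DKO replicate 2 and 0.681 in DKO replicate 3. It is also the 1 DKO library with the number 40972 in its title, which WT replicate 3 shares, while the other 4 libraries carry 47347. The labels do not say what this number stands for, and among DKO libraries it cannot be told apart from the mouse.

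Per kilobase of counted exon, the 10 genes spanned more than 2 orders of magnitude in P4 WT skin. S100a11 was first, with 3007 ± 148 normalized counts per kb (SD, n = 3). S100a14 (747 ± 49.9), S100a16 (738 ± 23.6) and S100a10 (663 ± 56.8) followed, and the WT libraries of these 3 genes overlapped one another in level. S100a6 (407 ± 20.5) and S100a7a (319 ± 48.2) came next without overlap between them. S100a13 (65.4 ± 8.92), S100a4 (51.4 ± 23.9) and S100a8 (31.6 ± 10.3) formed the lower group, in which S100a4 overlapped both of its neighbours. The length of S100a4 includes the 302 of 584 exon bases shared with Gm42674, so its level and rank may be too low. S100a9 was last, with 5.75 ± 5.69 normalized counts per kb. In the mice labelled DKO the mean levels per kb were 3194 for S100a11, 804 for S100a10, 676 for S100a16 and 653 for S100a14, so S100a10 stood second in order of the means, within the range of the other 2 genes.

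**Figure D1:**
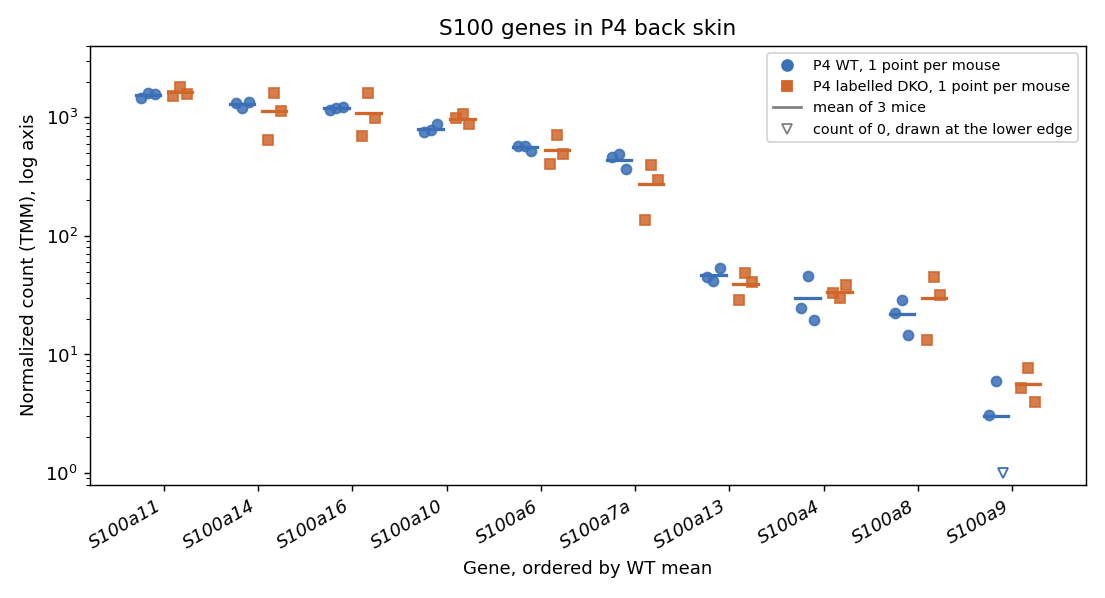
Normalized counts (log axis) of the 10 S100 genes in P4 back skin, ordered by WT mean, with 1 point per mouse (circles WT, squares labelled DKO), lines at group means and a count of 0 drawn as an open triangle at the lower edge. S100a11, S100a14, S100a16 and S100a10 sit at the top, between 640 and 1789 normalized counts, S100a8 between 13.1 and 45.2 and S100a9 between 0 and 7.72, and the groups overlap for each gene except S100a10, by a narrow margin.

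None of the S100 genes was called between the genotypes. Of the 10, 9 had enough counts for edgeR's quasi-likelihood F test and 0 passed an adjusted p under 0.05 with a log2 fold change beyond 1. Among all 20168 genes tested, 14 were called (0.0694%), 8 of them higher in DKO (0.0397%). At an unadjusted p under 0.05, 0 of the 9 passed in edgeR, where 7.5% of all genes did. DESeq2 also called 0 of the 10, with 0.783% of genes called and 0.498% called higher, and gave 1 of them, S100a7a, an unadjusted p under 0.05, as it gave 4.44% of genes. The adjusted p of the 9 genes by edgeR lay between 0.706 and 0.977. In direction 4 were above and 5 below WT, with a median log2 fold change of -0.06 against 0.02 over all genes tested. For 6 of the 9 the 95% interval of the fold change lay inside -1 to 1, so a change of more than 2-fold was outside the interval for them.

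**Figure D2:**
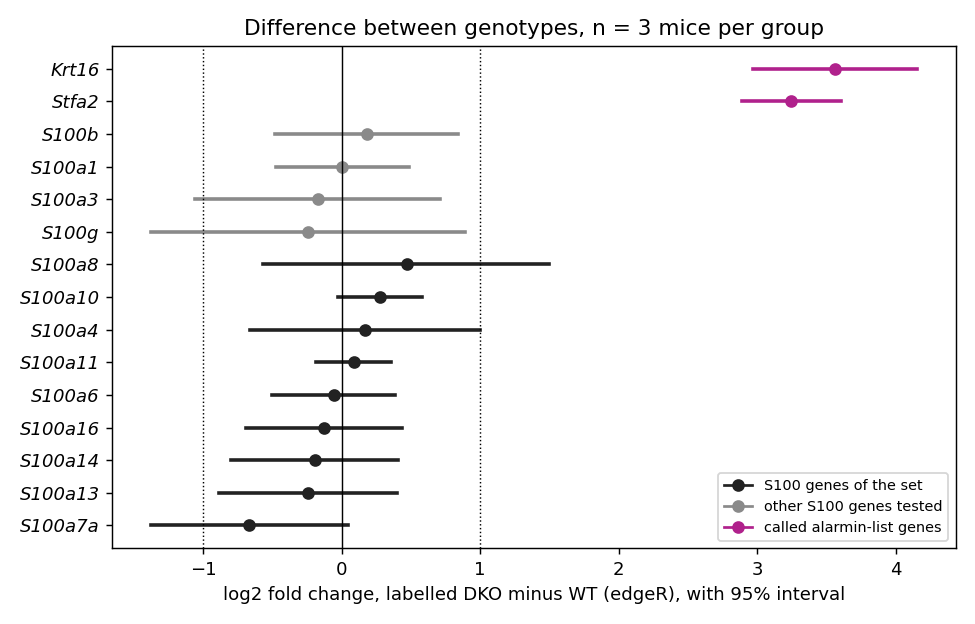
Log2 fold change of P4 mice labelled DKO against WT from edgeR (points) with 95% intervals (bars), 3 mice per group. Black marks the 9 tested S100 genes of the set, grey the other S100 genes tested and magenta the 2 called genes of the alarmin list, Krt16 and Stfa2, whose intervals lie beyond 2 while those of all S100 genes shown include 0.

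Calprotectin RNA was scarce in both genotypes. S100a8 had 22.4, 28.9 and 14.5 normalized counts in the WT libraries, in the order of replicates 1 to 3 that is used throughout, and 13.1, 45.2 and 31.9 in the DKO libraries. The lowest and the highest of the 6 libraries were both DKO, and the groups overlapped. The log2 fold change was 0.47 (SE 0.46, 95% interval -0.56 to 1.5, adjusted p = 0.929 in edgeR), an interval that reaches from below WT to nearly 3-fold above it. With a replicate left out it ranged from 0.07 without DKO replicate 2 (0.22 without WT replicate 3) to 0.79 without DKO replicate 1 (0.71 without WT replicate 2), and it was not called in any of these fits.

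S100a9 had raw counts of 3, 7 and 0 in the WT libraries and of 4, 7 and 4 in the DKO libraries. These are at or near the floor of 3 counts, and the gene did not pass the filter on low counts. DESeq2 gave it a log2 fold change of 0.90 without an adjusted p, and a difference was not detectable at this depth. Per kb, the log2 ratio of S100a9 to S100a8 was -2.46 and -1.87 in WT replicates 1 and 2 and could not be formed in WT replicate 3, where S100a9 was at 0. The DKO libraries stood at -0.91, -2.14 and -2.59. The difference of 0.29 between the group means did not pass a two-sided exact permutation test (p = 0.9, where the smallest p the design allows is 0.1). With 1 count added to each gene all 6 libraries could be used, and the difference was 0.86 (exact p = 0.5). The S100a9 message was thus below S100a8 in each library in which both had a count.

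Both calprotectin genes are also abundant in neutrophils, and bulk skin cannot tell fewer cells of a type from less RNA per cell. Among the neutrophil markers, Ly6g was at 0 in all 6 libraries. Mpo had 1 count in each WT library and 0 in each DKO library, and Elane had 4, 0 and 3 counts in WT libraries and 0 in each DKO library. Ngp, a granule protein gene, had 5, 4 and 2 counts in WT libraries against 7, 15 and 9 in DKO libraries. The 16 listed neutrophil genes, 1 of them at 0 throughout, summed to 73.4 to 85.6 normalized counts in WT (80.1 ± 6.19, SD, n = 3) and 106 to 133 in DKO (115 ± 15.3). Of these 16 genes 4 could be tested, 3 above and 1 below WT, and 0 were called. Csf3r had the smallest p of the 4, with each DKO library above each WT library (log2 fold change 0.91, SE 0.37, adjusted p = 0.603 in edgeR). The part of neutrophils in the S100a8 and S100a9 levels was not tested.

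S100a7a showed the lowest fold change of the set and did not pass the test. Its normalized counts were 463, 490 and 364 in WT and 135, 397 and 294 in DKO. DKO replicates 1 and 3 lay below every WT library, and DKO replicate 2 lay within the WT range. The log2 fold change was -0.67 (SE 0.32, 95% interval -1.38 to 0.04, adjusted p = 0.706 in edgeR), and DESeq2 gave -0.68 (adjusted p = 0.559). With a replicate left out it ranged from -1.01 without DKO replicate 2 (adjusted p = 0.226 in edgeR) to -0.36 without DKO replicate 1. Scaled to total counts without TMM, the groups no longer overlapped, which 5.96% of all genes tested showed in this direction with TMM.

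S100a10 was the 1 gene of the set whose groups did not overlap. It had 745, 786 and 879 normalized counts in WT and 978, 1065 and 881 in DKO, so that the margin was that between 879 in WT replicate 3 and 881 in DKO replicate 3. The same held, in this direction, for 7.24% of all genes tested, and the groups overlapped when scaled to total counts. The log2 fold change was 0.28 (SE 0.14, 95% interval -0.02 to 0.58, adjusted p = 0.73 in edgeR). Anxa2, which encodes its annexin partner, had a log2 fold change of 0.03 (95% interval -0.25 to 0.31, adjusted p = 0.979 in edgeR).

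S100a11, first in level per kb, varied little between libraries. WT libraries held 1450, 1590 and 1570 normalized counts and DKO libraries 1528, 1789 and 1580. DKO replicate 2 was the highest library, and the other DKO libraries fell within the WT range. With a log2 fold change of 0.09 (SE 0.12, 95% interval -0.19 to 0.36), its interval was the narrowest of the 9 genes.

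S100a14, S100a16 and S100a6 were close to one another across WT mice and spread widely across the mice labelled DKO. S100a14 had 1322, 1193 and 1356 normalized counts in WT and 640, 1611 and 1133 in DKO, with an SD of 86.2 in WT and 485 in DKO. Its log2 fold change was -0.19 (SE 0.27, 95% interval -0.80 to 0.41). S100a16 had 1157, 1190 and 1233 normalized counts in WT and 694, 1595 and 991 in DKO. DKO replicate 1 was thus the lowest and DKO replicate 2 the highest library for both genes, with WT between them.

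The same held for S100a6, with 570, 576 and 524 normalized counts in WT and 404, 707 and 493 in DKO. The log2 fold change was -0.12 for S100a16 (SE 0.25, 95% interval -0.69 to 0.44) and -0.06 for S100a6 (SE 0.20, 95% interval -0.50 to 0.39). Without DKO replicate 1 the fold changes of these 3 genes were on the other side of 0, at 0.07 for S100a14, 0.10 for S100a16 and 0.09 for S100a6, so their signs rested on that library. Without DKO replicate 2 they were -0.53, -0.49 and -0.31, and none was called in either fit.

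The 2 remaining genes had low counts, and those of S100a4 may lack reads from the bases it shares with Gm42674. S100a13 had 44.8, 41.6 and 53.9 normalized counts in WT and 28.9, 48.5 and 40.8 in DKO, a log2 fold change of -0.24 (SE 0.29, 95% interval -0.88 to 0.40) that ranged from -0.41 without DKO replicate 2 to -0.08 without DKO replicate 1. S100a4 had 24.5, 45.8 and 19.7 in WT and 32.9, 29.8 and 38.8 in DKO, a log2 fold change of 0.17 (SE 0.37, 95% interval -0.66 to 1.00). For S100a4 all 3 DKO libraries fell inside the WT range, and the fold change ranged from -0.07 without WT replicate 3 to 0.61 without WT replicate 2.

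The spread among the mice labelled DKO had a shared order. In 7 of the 10 genes DKO replicate 1 was the lowest of the 3 DKO libraries and DKO replicate 2 the highest, an order held by 24.2% of all genes tested. DKO replicate 1 was the lowest of all 6 libraries for 6 of the 10 genes, as for 23.6% of all genes tested, and DKO replicate 2 the highest for 7, as for 29.4%. The SD was larger in DKO than in WT for 8 of the 10, as for 74.4% of all genes tested. The S100a7a level in DKO replicate 1 was 0.309 of the WT mean, that of S100a14 0.496, that of S100a16 0.582, that of S100a6 0.725, that of S100a11 0.994 and that of S100a10 1.22.

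Of the 12 summed marker lists 5 had the same order. In DKO replicates 1, 3 and 2 the hair follicle list, 12 genes in the files, was at 0.362, 0.681 and 0.920 of the WT mean. The basal keratinocyte list was at 0.878, 1.02 and 1.40 and the granular layer list at 0.990, 1.05 and 1.29. The list of T cells and Langerhans cells was at 0.791, 0.893 and 1.25, and that of Schwann cells and melanocytes at 0.834, 1.1 and 1.24. In the list of T cells and Langerhans cells, Epcam, Cd74 and Cd3e had this order, while Ptprc, Cd3g, Trdc and Cd207 did not. Epcam had a WT mean of 1097 normalized counts, beside 1916 for that list. In DKO replicates 1, 3 and 2 Epcam had 900, 1072 and 1263 normalized counts and Ptprc 352, 185 and 287. Of the 12 hair follicle genes 12 were below WT in log2 fold change, with a median of -0.37, and 0 were called. Their sum was below every WT library in all 3 DKO libraries, but narrowly in DKO replicate 2 (0.920 against 0.925 in WT replicate 3). In DKO replicate 2, S100a6, S100a14 and S100a16 were above every WT library. So were Krt31, Krt33a, Krt35, Krt86, Msx2, Hoxc13 and Lef1 of the hair follicle list. Krt25, Krt71 and Krt73 of that list were below every WT library, and Krt27 and Tchh lay within the WT range. The summed suprabasal keratinocyte list was at 1.28, 1.42 and 1.20 of the WT mean in DKO replicates 1 to 3. That sum was carried by Krt1 and Krt10, with DKO means of 46590 and 40740 normalized counts beside 117600 for the list. Of the 7 suprabasal genes 3 were above and 4 below WT in log2 fold change, with a median of -0.08. The skeletal muscle list was at 3.16, 1.49 and 1.52 of the WT mean in DKO replicates 1 to 3. The part of tissue makeup in the S100 levels was not tested.

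**Figure D3:**
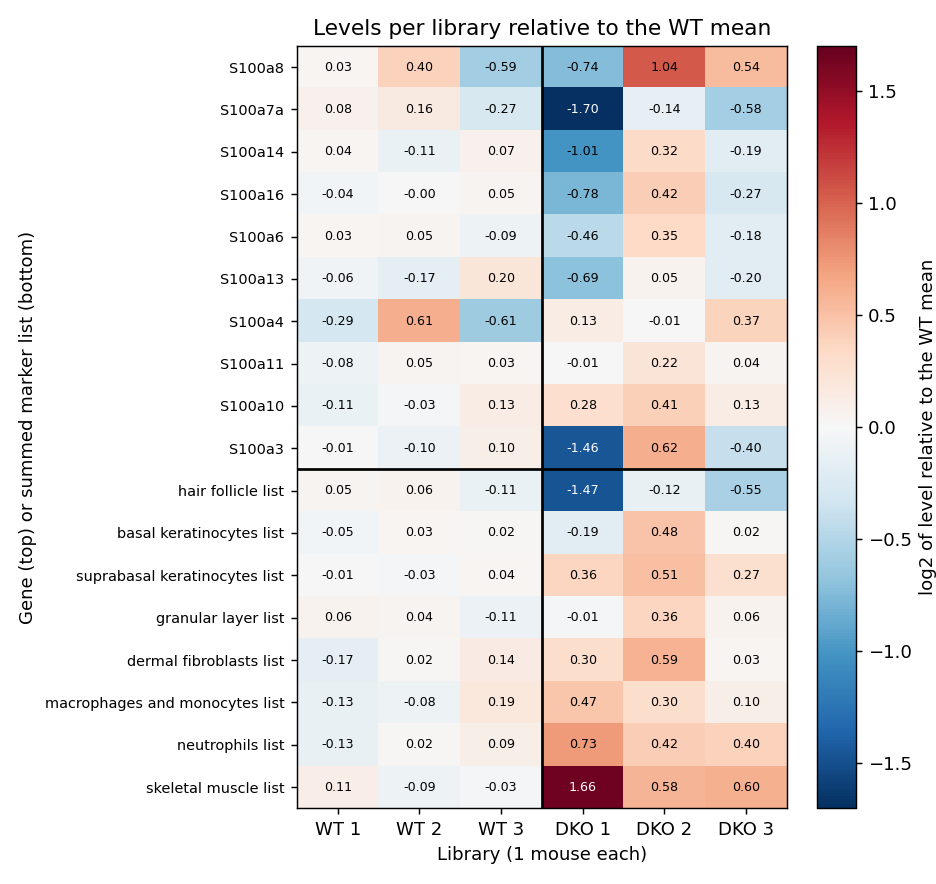
Log2 of the level in each library (columns, 1 mouse each) relative to the WT mean, for 9 S100 genes of the set with S100a3 and for summed marker lists below the line, with blue below and red above the WT mean. DKO replicate 1 is lowest for S100a7a (0.309 of the WT mean) and for the hair follicle list (0.362), and DKO replicate 2 is above the WT mean for most of the S100 genes.

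Of 9 other S100 genes listed, 8 were in the files and 4 could be tested, 2 above and 2 below WT, with a median log2 fold change of -0.08 and 0 called. S100b, a marker of glia and melanocytic cells, had a log2 fold change of 0.18 (SE 0.29, adjusted p = 0.953 in edgeR) and S100g, the vitamin D-dependent calcium carrier calbindin-D9k, one of -0.24 (SE 0.51, adjusted p = 0.966 in edgeR). S100a3, a gene of the hair cuticle named after its values were seen, had 4480, 4204 and 4851 normalized counts in WT and 1640, 6943 and 3427 in DKO. Its DKO libraries thus had the order of S100a14, S100a16 and S100a6, on both sides of the WT range. The log2 fold change was -0.17 (SE 0.39, adjusted p = 0.967 in edgeR).

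The fused-type S100 genes, which join an S100 domain to long repeats of the cornified layer or the hair root sheath, lie on the same chromosome. All 7 were tested, with 3 above and 4 below WT, a median log2 fold change of -0.16 and 0 called. Rptn (repetin) had 250, 177 and 102 normalized counts in WT and 1070, 340 and 293 in DKO, with each DKO library above each WT library, and a log2 fold change of 1.68 (SE 0.49, adjusted p = 0.354 in edgeR). Crnn (cornulin) had 2115, 1840 and 1892 in WT and 731, 1704 and 1317 in DKO, a log2 fold change of -0.64 (SE 0.25, adjusted p = 0.574 in edgeR). In DKO replicate 1 Rptn was thus at its highest and Crnn at its lowest.

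The 6 receptors listed were all expressed and 0 were called, with 4 above and 2 below WT and a median log2 fold change of 0.01. Ager had 82.8 to 124 normalized counts over the 6 libraries and Tlr4 92.7 to 164. The smallest p-values were those of Alcam, an adhesion molecule (log2 fold change -0.20, SE 0.13, adjusted p = 0.842 in edgeR), and Mcam (0.17, SE 0.16, adjusted p = 0.925). Among 9 binding partners 5 were above and 4 below WT, the median was 0.01, and 0 were called. Anxa11, an annexin that binds S100A6, had 270, 263 and 246 normalized counts in WT and 352, 396 and 300 in DKO, a log2 fold change of 0.43 (SE 0.16, adjusted p = 0.524 in edgeR). Fgf1, whose release involves S100A13, had one of 0.26 (SE 0.18, adjusted p = 0.873 in edgeR).

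The list of alarmin and wound response genes held 51 genes, of which 49 were in the files and 28 could be tested, with 20 above and 8 below WT and a median log2 fold change of 0.27. Called by edgeR were 2, both higher, and by DESeq2 7, all higher, including both. Over all genes tested, edgeR called 0.0694% and DESeq2 0.783%. The list was chosen with earlier results of these data known. The study itself reports increases of Krt6, Krt16 and Stfa2 in P4 skin, so these calls are no independent test. Stfa2, a stefin that inhibits cysteine proteases, rose from 212, 278 and 222 normalized counts in WT to 2475, 2087 and 2197 in DKO, a log2 fold change of 3.25 (SE 0.16, adjusted p = 5.56e-05 in edgeR). Krt16, a keratin of stressed and hyperproliferative epidermis, rose from 281, 284 and 139 to 2928, 2992 and 2372, a log2 fold change of 3.56 (SE 0.27, adjusted p = 0.00148 in edgeR). For both genes every DKO library was several-fold above every WT library.

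Called by DESeq2 but not by edgeR were Krt6b, Sprr2a3, Lce3c, Sprr1b and Sprr2h. Krt6b, a keratin that pairs with keratin 16, had 14.3, 30.6 and 16.3 normalized counts in WT and 586, 124 and 109 in DKO (log2 fold change 3.71, SE 0.69, adjusted p = 0.146 in edgeR and 0.00337 in DESeq2). Sprr2a3, a cornified envelope precursor, had 36.7, 66.2 and 24.8 in WT and 125, 351 and 266 in DKO (2.53, SE 0.43, adjusted p = 0.107 in edgeR and 2.17e-07 in DESeq2). Lce3c, a late cornified envelope gene, had 33.6, 28.0 and 35.9 in WT and 101, 89.3 and 59.7 in DKO (1.35, SE 0.28, adjusted p = 0.204 in edgeR and 0.0142 in DESeq2). Stfa, Sprr2 and Krt6 genes have near-identical neighbours, and the split of reads between copies is uncertain. Beside these, S100a8 at 0.47 and S100a7a at -0.67 were not called by either tool. Whether the difference between S100a8 and these genes exceeds error was not tested.

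**Figure D4:**
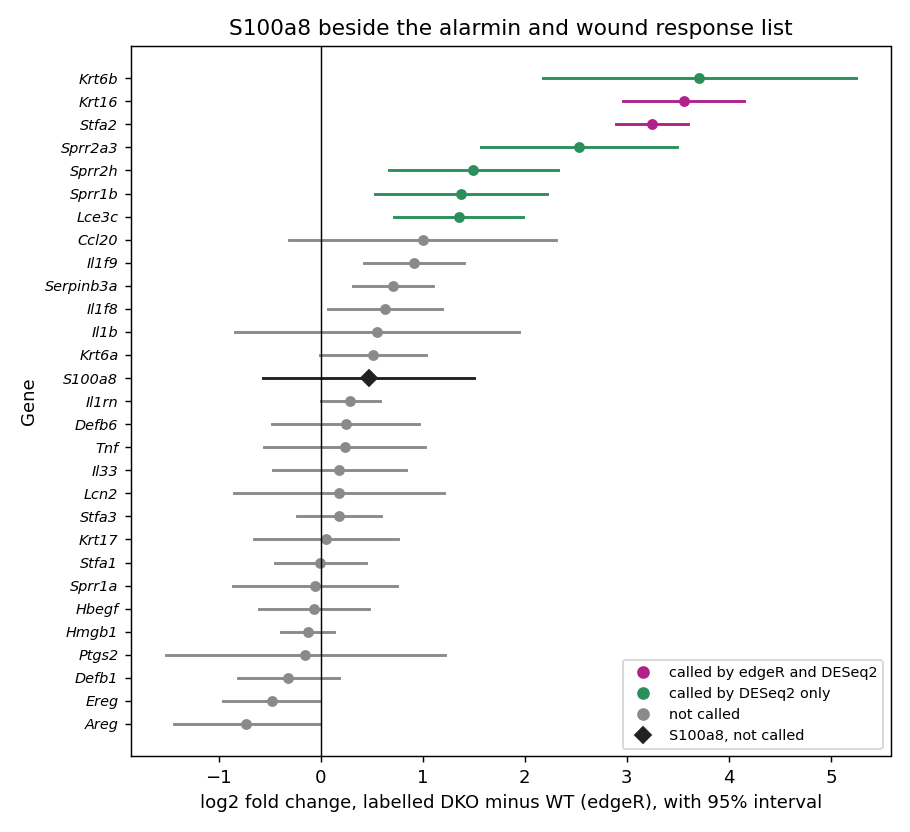
Log2 fold change of P4 mice labelled DKO against WT from edgeR (points) with 95% intervals (bars) for the 28 tested genes of the alarmin and wound response list and S100a8 (black diamond), 3 mice per group. The 2 genes called by edgeR and DESeq2 and the 5 called by DESeq2 only lie between 1.35 and 3.71, and the S100a8 interval runs from -0.56 to 1.5 and includes 0.

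The genes whose log2 CPM followed S100a8 most closely over the 6 libraries, among 12330 with a mean of at least 100 normalized counts, were Spred2 (Pearson r = 0.996), Tinf2 (0.994), Sema4b (0.993), Brms1 (0.992) and Usp43 (0.991). These values describe 6 libraries that differed in total counts and in summed marker lists, and the 5 genes were picked as the highest of all candidates. Usp43, for example, had 453, 486 and 352 normalized counts in WT and 350, 584 and 491 in DKO, with the same highest and lowest library as S100a8.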

How the data were processed

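After rRNA depletion and NEBNext Ultra II library preparation, the authors trimmed paired-end reads with Trimmomatic 0.36, aligned them to GRCm38 with STAR 2.5.2b and assigned them to genes with featureCounts (Subread 1.5.2). The deposited values are raw counts per gene without normalization. Strand use and the treatment of multi-mapping reads are not given in the sources used here. The 7 epidermis libraries (4 DKO and 3 Kctd15 KO, 3 weeks) hold 0 counts for each of the 49315 genes and were not analysed. Symbols were found for 48970 identifiers (99.3%).

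From these counts, edgeR 4.0.16 in R 4.3.3 (filterByExpr, TMM, quasi-likelihood F test, Benjamini-Hochberg over 20168 genes) compared the P4 groups of 3, and a call needed an adjusted p under 0.05 together with a log2 fold change beyond 1 in either direction. The biological coefficient of variation was 20%. Each standard error is the log2 fold change over the square root of F. DESeq2 1.42.0, the tool of the study, was the alternative, with other scalings, filters, the title number as a block and each replicate left out. The scripts were first tested on simulated data. The S100 genes and the lists (5 of pathway genes, 12 of cell type markers) were chosen with earlier results of these data known. Named were all 10 S100 genes and, of each pathway list, the called genes (up to 5 by smallest p) or otherwise the 2 with the smallest p. The neutrophil markers Ly6g, Mpo, Elane and Ngp and the 5 genes most like S100a8 (log2 CPM with a prior count of 2) were also named. S100a3, Anxa2, Ager, Tlr4 and Csf3r were added after their values were seen. So were Krt1, Krt10 and the genes named of the hair follicle list and of the list of T cells and Langerhans cells. Marker lists other than the neutrophil list are otherwise given by counts and sums. Of the listed genes 3 were matched through a RefSeq synonym. Separate mice are the replicates.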

Additional observations from a re-analysis of the deposited data

How the results depend on the processing

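The count of called S100 genes was 0 with DESeq2, with RLE or total-count scaling, without a filter, with at least 10 counts required per library, with muscle genes out of library sizes, no fold threshold and each replicate left out. Of 118 recomputed fold changes 113 kept their direction, 1 was 0 to 3 decimals (S100a6 without DKO replicate 3), and 4 were reversed, all with a replicate left out. With a replicate left out, S100a4 ranged from -0.073 (without WT replicate 3) to 0.613, and the next 3 genes ended at their upper value without DKO replicate 1: S100a6 from -0.306 to 0.09, S100a14 from -0.532 to 0.071 and S100a16 from -0.494 to 0.097. The difference in the log2 ratio of S100a9 to S100a8 ranged from -0.1978 to 0.6412 with a replicate left out, and was -0.0106 without WT replicate 1 and -0.1978 without DKO replicate 1. The difference in the summed neutrophil list stayed between 26.12 and 39.74 normalized counts. Called genes of the alarmin list numbered 7 with DESeq2, 7 with no filter and 2 to 4 with a replicate left out (4 without DKO replicate 1, where Krt6b and Sprr2a3 joined Stfa2 and Krt16), and 1 fused-type gene, Rptn, was called with no filter.

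Called among all genes were 154 with DESeq2, 22 with total counts, 210 with no filter, and 2 to 36 with a replicate left out, against 14. Mice of both genotypes share a title number, which the labels do not tie to a litter. With that number as a replicate block 35 genes were called among all genes, 0 of them S100 genes of the set. S100a7a then stood at -0.76 (unadjusted p = 0.00583, adjusted p = 0.254 in edgeR), where its unadjusted p was 0.0629 in edgeR without the block. The cause was not tested.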
